A study of Mus musculus with 108 samples.

Results

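The libraries described here are those of the wild-type (WT) mouse hippocampus (HIP) late in gestation (E17.5) and in the first week after birth (P7), and the question they address is which genes rise and which fall in that tissue between these ages. Membership was taken from the labels alone: a library belonged if it was labelled wild type, hippocampus and either age. This gave 6 libraries at each age, 12 of the 108 in the series, and each library came from a different mouse. Both groups carry no Cul3 mutation, share the strain background spelled C56Bl/6N in the labels, and received no treatment. The series also holds cortex (CX) and cerebellum (CB) of the same mice and mice lacking a functional copy of Cul3, a scaffold of ubiquitin ligases, and these serve below only for comparison. Total RNA was depleted of ribosomal RNA and sequenced as stranded libraries, and values are CPM, counts scaled to a common library size with trimmed mean of M values (TMM) factors, with n = 6 mice at each age unless stated. The labels give neither sex nor litter nor date, so age cannot be told apart from any handling that was done age by age. Their titles do carry a code of unstated meaning that groups the mice: at E17.5 mice 1 and 2 share S2, mice 3 and 4 share S3 and mice 5 and 6 share S4, and at P7 mice 1 and 2 share C1, mice 3, 4 and 5 share C2 and mouse 6 has C4. The p-values treat the mice as independent and so measure the spread between these mice as labelled, whatever they share through that code.

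Between these ages the rodent hippocampus passes from making neurons to wiring them. Pyramidal neurons of CA1 to CA3 are born before birth from progenitors of the ventricular zone, whereas granule neurons of the dentate gyrus are produced from a migrating pool of progenitors that reaches the dentate before birth and stays active afterwards. The cortical hem, a strip at the edge of the hippocampal primordium, supplies Wnt ligands that set up the hippocampal field and gives rise to Cajal-Retzius cells, which release reelin. After birth synapses form in large numbers, GABA turns from a depolarizing to a hyperpolarizing transmitter, and astrocytes and oligodendrocytes multiply and mature.

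Library totals ran from 15126114 to 32356968 counts at E17.5 and from 34640273 to 42330773 at P7, and the mitochondrial genome took 0.881% to 1.53% and 1.5% to 2.51% of them. Principal component 1 of log2 CPM held 75.2% of the variance and separated the ages without overlap. Mice 3 and 4 lay farthest from P7 among the E17.5 libraries and mice 5 and 6 nearest to it, so the order along this component followed the title codes (-103.9 and -115.8 for S3, -78.3 and -62.4 for S2, -52.4 and -51.3 for S4). Mice 1 and 4 had the lowest E17.5 totals, 15126114 and 15264678 counts. Xist exceeded 10 CPM in 4 of 6 E17.5 and 3 of 6 P7 libraries, so both ages appeared to mix the sexes. Cul3 itself lay between 177 and 211 CPM at E17.5 and between 163 and 194 CPM at P7, a log2 change of -0.12 ± 0.06 (SE) whose call at a false discovery rate (FDR) of 0.1 was lost under 14 of 24 alternative settings.

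Most expressed genes differed between the ages. The edgeR quasi-likelihood test called 13562 of 17662 tested genes at FDR 0.1 (76.8%), of which 6626 rose (37.5% of genes tested) and 6936 fell (39.3%), and the median log2 change of all tested genes was -0.03. Because a call against no change was this common, a stricter test asked whether a gene had changed by more than 2-fold. It called 3406 genes (19.3%), of which 2085 rose (11.8%) and 1321 fell (7.48%). The CPM values of the 6 E17.5 and 6 P7 mice did not overlap in 8932 genes (50.6%), and this held for 3310 of the 3406 genes changed beyond 2-fold. Every list count of changes between the ages below is to be read against these shares. They are 37.5% for a rise, 39.3% for a fall, 11.8% and 7.48% beyond 2-fold, and 50.6% without overlap. Summing the counts of mice that share a title code, which leaves 3 units at each age, gave 13090 genes called and 3280 changed beyond 2-fold. With libraries scaled by their totals alone, the median of all genes moved to -0.16, and changes given here are relative to the TMM scale.

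**Figure D1:**
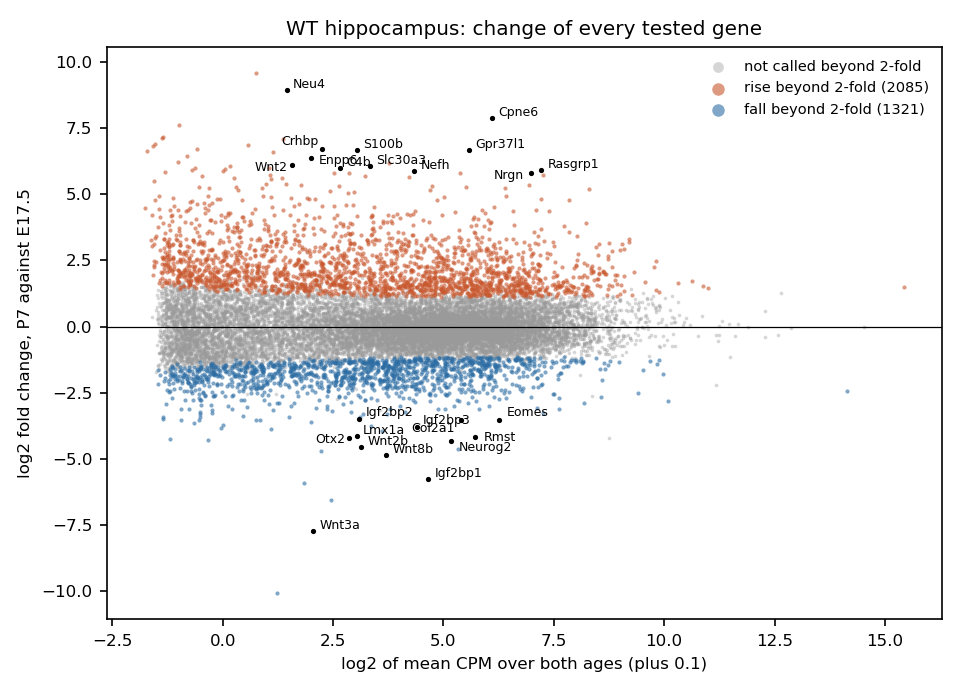
Log2 fold change from E17.5 to P7 of every tested gene (vertical axis) against the log2 of its mean CPM over both ages (horizontal axis). Orange and blue points are the 2085 genes that rose and the 1321 that fell by more than 2-fold, and grey points are the rest. The labelled genes are the 12 largest rises and 12 largest falls with at least 5 CPM at the higher age, among them Cpne6 at 7.88 and Wnt3a at -7.72. All tested genes ran from -10.06 to 9.58.

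The 12 largest rises included genes of forebrain neurons and of glia. Cpne6 (ENSMUSG00000022212, GRCm38 chr14:55510445-55517431), a calcium-binding copine of forebrain neurons, lay between 0.122 and 1.70 CPM at E17.5 and between 108 and 175 CPM at P7, a log2 change of 7.88 ± 0.39 (SE; edgeR adjusted p = 4.09e-09). Rasgrp1, a Ras activator, rose from a median of 5.12 CPM to 290 CPM, and Nrgn, the calmodulin-binding protein neurogranin, from 3.32 CPM (0.306 to 11.6) to 238 CPM (229 to 276). Slc30a3, the transporter that loads zinc into synaptic vesicles, rose by 6.06 ± 0.30 on the log2 scale from a median of 0.188 CPM to 19.7 CPM. The glial genes among these were S100b, a calcium-binding protein of astrocytes (0.172 to 16.8 CPM in the median, log2 6.67 ± 0.26), Gpr37l1, a receptor of astrocytes (0.740 to 97.8 CPM, 6.67 ± 0.28), C4b, a complement component (6.00 ± 0.35), and Enpp6, an early marker of newly formed oligodendrocytes (6.38 ± 0.44). Neu4, a sialidase, had 1 count in all E17.5 libraries together and 1102 at P7, a ratio of depth-scaled counts of 795 with an exact 95% interval of 142 to 31400 that covers counting error only. Crhbp, which binds corticotropin-releasing hormone, Wnt2 and the neurofilament gene Nefh completed the set with log2 changes of 6.71, 6.12 and 5.87.

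The 12 largest falls included genes of the hem, of neuronal precursors and of an embryonic RNA-binding family. Wnt3a (ENSMUSG00000009900, GRCm38 chr11:59248033-59290752), the hem ligand needed for hippocampal growth, lay between 4.95 and 14.1 CPM at E17.5 and between 0 and 0.0906 CPM at P7 (log2 -7.72 ± 0.53). Wnt8b fell from a median of 22.8 CPM to 0.773 CPM, Wnt2b from 16.5 CPM to 0.707 CPM, and Lmx1a, a homeobox factor of the hem, from 12.9 CPM to 0.894 CPM. All 3 members of the Igf2bp family, RNA-binding proteins that belong to the fetal let-7 target program, were in this set: Igf2bp1 fell from 44.9 CPM (30.7 to 71.2) to 0.876 CPM (0.651 to 1.40), a log2 change of -5.76 ± 0.27, and Igf2bp3 and Igf2bp2 by 3.77 and 3.47 on the log2 scale. The proneural factor Neurog2 (log2 -4.32 ± 0.36), the intermediate progenitor factor Eomes (-3.52 ± 0.33), the long noncoding RNA Rmst (-4.15 ± 0.31), the collagen gene Col2a1 (-3.52 ± 0.28) and the homeobox gene Otx2 (-4.22 ± 0.55) made up the rest. Otx2 is also a choroid plexus marker, and its 38.4 CPM in E17.5 mouse 2 stood above the 5.31 to 12.9 CPM of the other E17.5 mice.

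Cell cycle genes fell as a block. Every one of the 12 DNA replication genes and 18 mitosis genes fell at FDR 0.1 (background 39.3%), 9 and 18 of them by more than 2-fold (background 7.48%), with median log2 changes of -1.70 and -2.06 and no overlap between the ages in any of the 30 genes (background 50.6%). Mki67, the proliferation antigen Ki-67, lay between 160 and 275 CPM at E17.5 and between 37.7 and 50.6 CPM at P7, 4.86-fold lower. Cdk1, the kinase that drives entry into mitosis, fell from 33.3 CPM (25.6 to 51.0) to 8.63 CPM (7.13 to 10.8), and Top2a, which untangles replicated chromosomes, from 213 CPM to 50.1 CPM. Cdc20, an activator of the anaphase-promoting complex, the kinesin Kif11 and the mitotic cyclin Ccnb1 fell by 2.17, 2.04 and 2.29 on the log2 scale. Among replication genes the helicase subunit Mcm6 fell by 1.81, the sliding clamp Pcna by 1.07 and the G1 cyclin Ccnd1 by 0.53. E17.5 mice 3 and 4 held the highest sums over the mitosis genes, 1640 and 1530 CPM against 894 to 1000 CPM in the other 4 mice, and P7 sums lay between 227 and 296 CPM. In bulk tissue fewer cells of a type and less RNA per cell cannot be told apart, here and for every cell type named below.

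Mitotic genes are known for promoters that pair a CHR (cell cycle genes homology region) with CCAAT boxes, so the promoter windows of the members were read from RefSeq (mouse build GRCm38.p6, 250 bases before to 50 after the transcription start). The CHR was searched as TTTGAA and the box as CCAAT, each on both strands, and where they adjoin they can share a base. Windows were found for 15 of the 18 mitosis genes, and 10 of these (66.7%) held a CHR, against 20.2% of the 27025 genes with a window. A CCAAT box was present in 13 of 15 (86.7%) against 41.1% of all genes, and both motifs in 10 of 15 (66.7%) against 7.97%. Of 8 replication genes with a window 1 (12.5%) held a CHR and 7 (87.5%) a CCAAT box, and of 8 immediate early genes, which rose between the ages, 0 and 2 did. A match is a match of letters and no evidence of binding. The 120 bases before the start of 4 mitosis genes whose stretch holds both motifs follow, to show how the motifs lie in genes that fell together, read 5′ to 3′ on the strand of each gene with the CHR (TTTGAA or TTCAAA) and the CCAAT box (CCAAT or ATTGG) in capitals.
Cdc20, chr4:118437344-118437463, minus strand: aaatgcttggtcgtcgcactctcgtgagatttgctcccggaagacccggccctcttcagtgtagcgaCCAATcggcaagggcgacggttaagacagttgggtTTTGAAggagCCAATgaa
Cdk1, chr10:69352913-69353032, minus strand: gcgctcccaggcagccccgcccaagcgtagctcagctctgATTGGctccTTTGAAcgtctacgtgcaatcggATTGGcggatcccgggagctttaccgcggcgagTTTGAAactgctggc
Top2a, chr11:99024190-99024309, minus strand: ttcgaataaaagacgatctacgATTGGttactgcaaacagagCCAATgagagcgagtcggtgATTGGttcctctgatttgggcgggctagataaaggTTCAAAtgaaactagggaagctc
Kif11, chr19:37376262-37376381, plus strand: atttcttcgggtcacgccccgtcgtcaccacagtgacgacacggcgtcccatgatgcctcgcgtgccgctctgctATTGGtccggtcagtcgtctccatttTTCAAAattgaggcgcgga

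Progenitor genes fell with the cell cycle, but not all to the same degree. Of 12 radial glia and stem cell genes 10 fell, 7 by more than 2-fold (median log2 change -1.54), and 1 rose. Nes and Vim, intermediate filaments of radial glia, fell from medians of 258 and 516 CPM to 52.6 and 99.9 CPM (log2 -2.55 ± 0.21 and -2.67 ± 0.23), and the transcription factors Pax6 and Gli3 by 2.19 and 2.29 on the log2 scale. Sox2, which marks neural stem cells and also astrocytes, fell by only 0.63 ± 0.12. Fabp7, a lipid-binding protein of radial glia that astrocytes retain, lay at 212 to 343 CPM and then 305 to 377 CPM, and its log2 change of 0.28 ± 0.12 lost its call without E17.5 mouse 4 and under 4 other settings. The committed neuronal precursor list moved furthest of the progenitor lists: all 11 tested members fell, 9 by more than 2-fold, with a median log2 change of -2.70. Eomes lay at 75.8 to 243 CPM in the embryos and 9.42 to 16.8 CPM in the pups, and Neurog2 at 32.1 to 118 CPM and then 1.81 to 4.64 CPM. Insm1 (log2 -3.0 ± 0.16) and Nhlh1 (-3.42 ± 0.35), factors of delaminating and newborn neurons, followed, whereas Neurod1, which granule neuron precursors of the dentate also express, fell by 1.49 ± 0.16 and kept a median of 83.8 CPM. E17.5 mice 3 and 4 again held the highest sums (1060 and 1030 CPM against 474 to 628 CPM in the others).

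Postmitotic immature neuron genes split. Of 14, 9 fell (5 by more than 2-fold), 2 rose and 3 passed neither way, with a median of -0.55. Sox11 and Igfbpl1, high in newborn neurons, fell from medians of 1920 and 476 CPM to 262 and 63.2 CPM (log2 -2.82 ± 0.14 and -2.90 ± 0.18), and the microtubule-associated doublecortin gene Dcx from 902 CPM to 341 CPM. Gap43 and Stmn2, which serve growing axons, rose from medians of 283 and 405 CPM to 651 and 772 CPM. Tubb3, the neuronal tubulin, had nearly equal medians of 1460 and 1610 CPM, a log2 change of 0.07 ± 0.10 that did not pass and turned sign under 2 settings. Among 8 tested genes of the heterochronic list, which holds RNA-binding proteins and let-7 targets, 7 fell and 1 rose (median -1.52), and the 3 Igf2bp genes led.

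Genes of the hem and of hippocampal field patterning fell in 9 of 10 cases, 6 by more than 2-fold (median log2 change -1.67). Apart from Wnt3a and Lmx1a these were Lef1, the nuclear effector of Wnt signalling that is needed for the dentate gyrus (23.3 to 5.21 CPM in the median, log2 -2.06 ± 0.23), and the nuclear factor I genes Nfia, Nfib and Nfix (-1.75, -1.79 and -1.59). Zbtb20, which specifies the hippocampus, fell by 1.09 ± 0.23 and did not pass the 2-fold test. It stayed between 396 and 554 CPM at P7. Of 8 Cajal-Retzius genes 6 fell, each by more than 2-fold, and the list median was -2.22. Trp73, the p73 gene of hem-derived Cajal-Retzius cells, went from 45.0 CPM (34.6 to 51.3) to 7.67 CPM (5.74 to 8.08), Lhx5 from 13.7 CPM to 1.38 CPM, and Reln, the reelin gene, which interneurons also express, from 1230 CPM to 462 CPM. The chemokine receptor gene Cxcr4, used by Cajal-Retzius and dentate precursor cells, fell by 2.26 ± 0.16. Calb2, the calretinin gene shared with interneurons, rose by 0.49 ± 0.10.

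Genes that mark the mature hippocampal fields moved the other way, except in CA3. Several of them also rose in cortex, as given below. Of 10 dentate granule genes 8 rose (background 37.5%), 7 by more than 2-fold (background 11.8%), and the median log2 change was 2.15. Calb1, the calbindin gene of granule neurons, which CA1 neurons and interneurons also express, lay at 4.95 to 13 CPM in the embryos and 70.0 to 81.2 CPM in the pups (log2 3.20 ± 0.19). C1ql2 and C1ql3, secreted synaptic proteins of mossy fibres, rose by 4.63 ± 0.33 and 4.01 ± 0.27, and Tdo2, a tryptophan-degrading enzyme, by 3.79 ± 0.33. Prox1, the homeobox factor that granule cells carry from their birth, was already at 112 CPM (68.0 to 199) at E17.5 and lay at 137 CPM (105 to 152) at P7, a log2 difference of 0.08 ± 0.22 that did not pass and whose sign turned without E17.5 mouse 2. The granule list thus held a factor at similar levels at both ages together with genes that lay below 5 CPM in every embryo, such as C1ql2 and C1ql3.

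Among 8 CA1 genes 7 rose and 6 passed 2-fold (median 1.89): Fibcd1 rose from 20.1 CPM (19 to 25.3) to 155 CPM (113 to 185), Wfs1, the wolframin gene, by 2.25 ± 0.10 and the POU factor Pou3f1 by 2.97 ± 0.42. Spink8, a protease inhibitor gene typical of CA1, lay at 0 to 0.145 CPM at E17.5 and 2.69 to 5.35 CPM at P7. Mpped1 was at a median of 188 CPM and then 214 CPM and did not pass. In CA2, 5 of 6 genes rose and 2 passed 2-fold (median 1.25), led by the signalling regulator Rgs14, from 0.432 CPM to 13.5 CPM. CA3 genes were mixed: 4 rose and 3 fell of 8 (median 0.45), near the shares of all genes (37.5% and 39.3%). Cpne4 was up 3.24-fold and Elavl2, which newborn neurons also express, 1.86-fold lower.

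**Figure D2:**
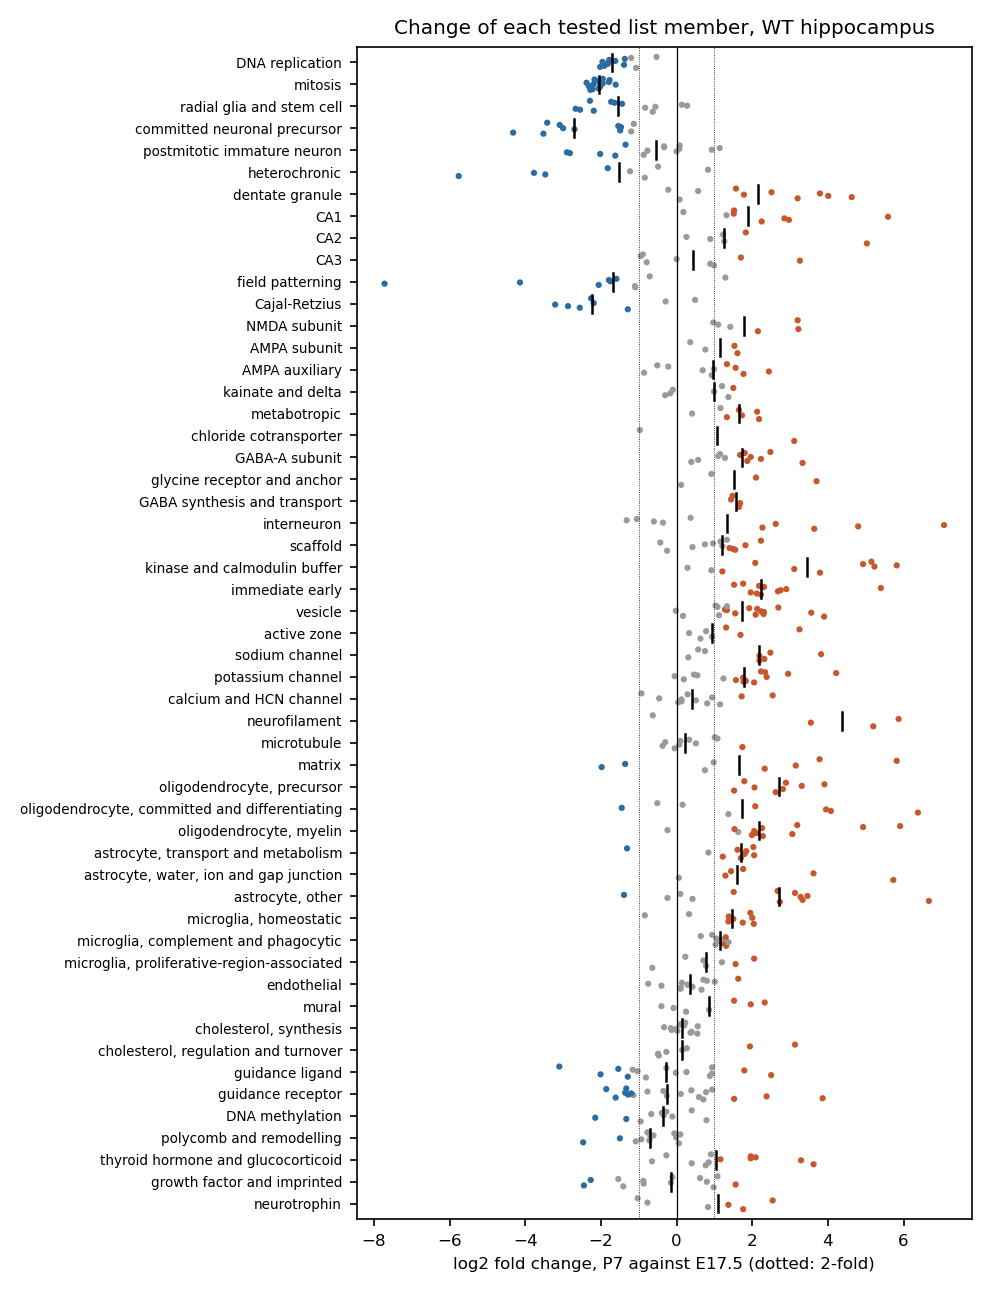
Log2 fold change from E17.5 to P7 of each tested member of each list (horizontal axis), by list (rows), with a black bar at the list median. Orange and blue points passed the test of a rise or fall by more than 2-fold and grey points did not, and the lists run from a median of -2.70 for committed neuronal precursors to 4.38 for neurofilaments.

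Ionotropic glutamate receptors carry fast excitation, and their NMDA class changes its GluN2 subunits after birth. All 6 tested NMDA subunit genes rose, 3 by more than 2-fold and 5 without E17.5 mouse 6 (median 1.78). Grin2a (ENSMUSG00000059003, GRCm38 chr16:9567898-9995560), for the GluN2A subunit of mature synapses, lay at 33.5 CPM (8.19 to 51.4) in the embryos and 284 CPM (235 to 322) in the pups, a log2 change of 3.22 ± 0.41. Grin2b, for the GluN2B subunit of young synapses, did not fall but rose by 1.42 ± 0.28, from 288 CPM (161 to 573) to 891 CPM (774 to 1010). The obligatory subunit gene Grin1 rose 4.44-fold and Grin3a 9.18-fold. The ratio of Grin2a to Grin2b counts within each library therefore moved less than Grin2a alone: it lay between 0.0468 and 0.140 at E17.5 and between 0.260 and 0.387 at P7, 3.91-fold higher on average (exact 2-sided permutation p = 0.00216, adjusted over 3 ratios 0.00216, the smallest that this design allows). As a ratio of counts it also holds the lengths of both transcripts, so its change, not its level, is what can be read.

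All 4 AMPA subunit genes rose, but Gria1 and Gria3 passed 2-fold (log2 1.61 ± 0.19 and 1.53 ± 0.19) while Gria2 rose by 0.76 ± 0.15 and Gria4 by 0.36 ± 0.11. Of 10 AMPA auxiliary genes 7 rose and 3 fell. Cacng8, the gamma-8 subunit typical of hippocampus, rose from 9.13 CPM to 51.2 CPM and Cnih2, a cornichon, from 103 CPM to 305 CPM, whereas Cacng4, a subunit high in embryonic brain, fell by 0.86 ± 0.23. Of 7 kainate and delta receptor genes 4 rose, 1 of them by more than 2-fold, and the kainate subunit gene Grik2 fell by 0.30 ± 0.08. All 7 metabotropic receptor genes rose, 5 by more than 2-fold, and the group I receptor gene Grm5 reached a median of 523 CPM from 118 CPM.

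GABA-A receptors are chloride channels, and the effect of their opening depends on the cotransporters that set intracellular chloride. Slc12a5 (ENSMUSG00000017740, GRCm38 chr2:164960802-164999731), the extruder KCC2, lay at 23.6 CPM (6.42 to 68.1) at E17.5 and 254 CPM (242 to 260) at P7, a rise of 3.11 ± 0.43 on the log2 scale. Slc12a2, the importer NKCC1, which glia and vessels also express, lay at 118 CPM (98.1 to 135) and then 59.7 CPM (56.3 to 62.5), a fall of 0.97 ± 0.09 that did not pass the 2-fold test. The ratio of Slc12a5 to Slc12a2 counts lay between 0.0476 and 0.648 in the embryos and between 4.04 and 4.62 in the pups, 22.1-fold higher (exact 2-sided permutation p = 0.00216, adjusted 0.00216). The embryos spread over more than 10-fold in this ratio, with E17.5 mouse 4 lowest and mouse 6 highest, while the pups were close together.

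All 12 GABA-A subunit genes rose, 7 by more than 2-fold (median log2 change 1.74). Gabra2, an alpha subunit already abundant in the young brain, went from 235 CPM (206 to 305) to 316 CPM (295 to 377) with overlap, log2 0.39 ± 0.10. Gabra5, the extrasynaptic subunit abundant in CA1, and Gabrd, the extrasynaptic subunit of granule neurons, rose 4.70-fold and 5.58-fold.

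The 4 genes of GABA synthesis and transport rose, all called beyond 2-fold: Gad1 and Gad2, which make GABA, by 1.65 ± 0.36 and 1.68 ± 0.32, and the vesicular transporter gene Slc32a1 by 1.44 ± 0.25. That count of 4 was not stable, since leaving out E17.5 mouse 1, 2, 3 or 4 left 2, and DESeq2 or summing by title code left 1. Interneuron genes divided by role, with 5 rises and 4 falls among 10 tested and 1 that did not pass. The peptide genes of this list, which need not be expressed by interneurons alone, rose. Sst went from 5.31 CPM to 74.6 CPM, Npy from 5.63 CPM to 25.1 CPM and Cck from 20.1 CPM to 142 CPM. Vip went from 0 to 0.0757 CPM in the embryos to 3.90 to 6.42 CPM in the pups (log2 7.07 ± 0.36). Pvalb, of the latest-maturing interneurons, had 2 counts over all E17.5 libraries and 98 at P7, a ratio of 35.3 with a 95% interval of 9.53 to 296. The migration factors Lhx6 and Dlx2 fell by 0.36 ± 0.14 and 1.32 ± 0.30, the former no longer called when counts were summed by title code. Dlx2 lay at 13.9 CPM in E17.5 mouse 6 against 3.42 to 7.01 CPM in the other embryos.

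**Figure D3:**
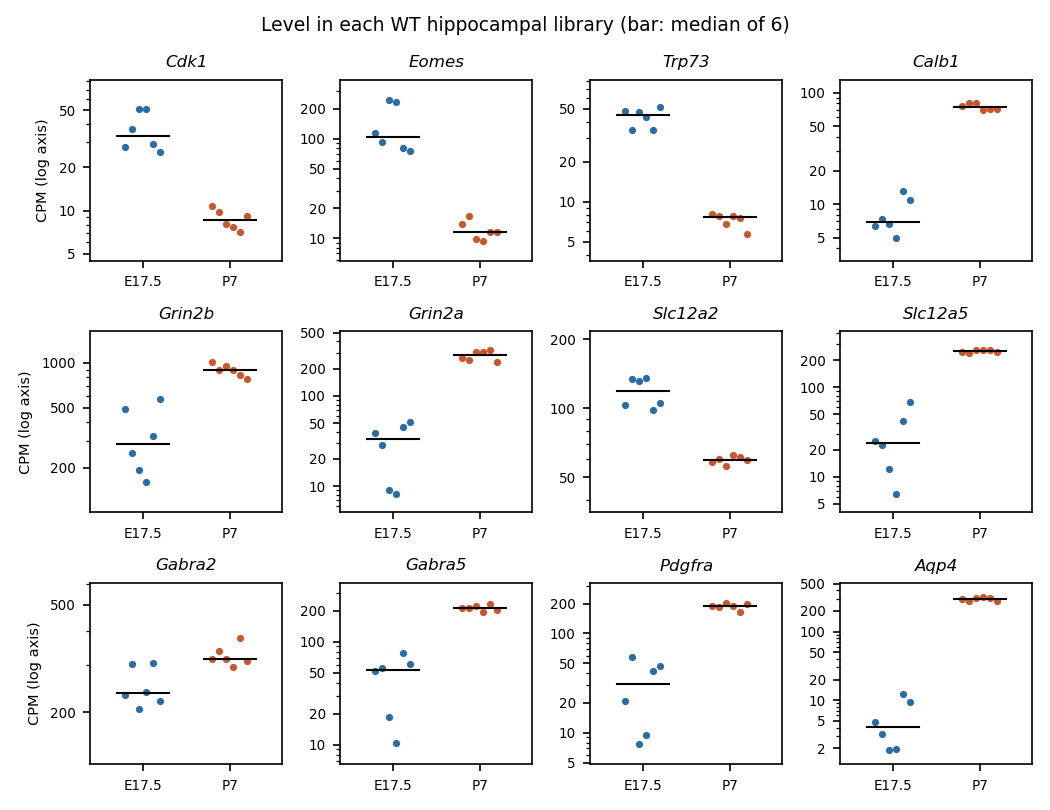
CPM of 12 genes in each of the 6 E17.5 (blue) and 6 P7 (orange) WT hippocampal libraries, on log axes, with a bar at the median of each age. Cdk1, Eomes, Trp73 and Slc12a2 sit lower at P7 and the other 8 higher, with overlap between the ages in Gabra2 alone, and E17.5 libraries spread more widely than P7 libraries in Grin2a, Slc12a5 and Pdgfra.

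Postsynaptic genes rose nearly throughout. All 10 genes of the kinase and calmodulin buffer list rose, 8 by more than 2-fold, and the median log2 change was 3.45. Camk2a, the main kinase of the postsynaptic density, lay at 26.3 CPM (4.83 to 70.8) in the embryos and 396 CPM (325 to 471) in the pups (log2 3.79 ± 0.55). Icam5, the telencephalic adhesion protein telencephalin, went from 4.98 CPM to 161 CPM, and Camk4 from 80.7 CPM to 643 CPM, while Camk1 rose by only 0.29 ± 0.08. Of 13 scaffold genes 10 rose, 5 by more than 2-fold and 8 without E17.5 mouse 6, and 2 fell. Dlg4, for PSD-95, rose 2.64-fold and Shank3 3.53-fold. Shank1 did not pass (log2 0.42 ± 0.45). It lay at 150 CPM in E17.5 mouse 6 against a group median of 33.9 CPM, and without that mouse it passed with 0.93.

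Immediate early genes, which neuronal activity induces within minutes, all rose. These were 11 of 11 (background 37.5%), each by more than 2-fold (background 11.8%), with a median of 2.23 and no overlap in any (background 50.6%). Fos went from 1.65 CPM (1.11 to 2.32) to 7.92 CPM (5.65 to 9.32), Arc, of the synapse, from 3.31 CPM to 18.5 CPM, and Egr4 and Npas4 from medians of 0.0307 and 0.324 CPM to 4.94 and 2.22 CPM. Bdnf, the neurotrophin, rose 3.38-fold.

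On the presynaptic side 16 of 18 vesicle genes and 7 of 7 active zone genes rose, 12 and 3 by more than 2-fold (medians 1.73 and 0.94). Slc17a7, the vesicular glutamate transporter VGLUT1, went from 41.2 CPM (20.7 to 52.8) to 538 CPM (499 to 687), Sv2b from 33.8 CPM to 409 CPM, the fusion protein gene Snap25 from 95.1 CPM to 610 CPM, and synaptophysin (Syp) from 113 CPM to 539 CPM. Unc13c, a vesicle priming factor, led the active zone genes with 3.25 ± 0.28.

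Genes of excitability rose most for sodium and potassium channels. All 8 sodium channel genes rose, 5 by more than 2-fold (median 2.19), with Scn2a, of the axon initial segment, at 106 CPM and then 511 CPM. Of 15 potassium channel genes 13 rose and 10 passed 2-fold (median 1.77), led by the inward rectifier gene Kcnj4 (4.22 ± 0.29) and the M-current gene Kcnq5 (2.95 ± 0.24). Calcium channel and HCN genes moved little as a list (7 of 12 rose, 2 fell, median 0.40), but the pacemaker channels within it diverged: Hcn2 rose by 2.54 ± 0.23 and Hcn4 fell by 0.93 ± 0.13.

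Neurofilament genes had the highest list median, 4.38. Nefl, the light chain, lay at 12 CPM (8.99 to 34.7) in the embryos and 607 CPM (561 to 678) in the pups, Nefm at 7.55 CPM and 92.5 CPM, and Nefh at 0.622 CPM and 37.0 CPM. Ina, for the embryonic neuronal filament internexin, fell by 0.63 ± 0.19. Microtubule genes stayed near the median of all genes (4 of 10 rose, 2 fell, median 0.22), with Tubb2a up 3.35-fold and Mapt at medians of 1450 and 1400 CPM and not passing. In the extracellular matrix the embryonic components Vcan, for versican, and Tnc, for tenascin C, fell by 1.98 ± 0.10 and 1.36 ± 0.10, while components of perineuronal nets rose: Hapln1, a link protein, from 0.500 CPM (0.122 to 4.84) to 80.7 CPM (72.8 to 93.7), Acan, for aggrecan, from 1.69 CPM to 13.4 CPM and Bcan, for brevican, from 48.3 CPM to 242 CPM.

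All 8 oligodendrocyte precursor genes rose by more than 2-fold, with a median of 2.71. Pdgfra, the growth factor receptor of these precursors, lay at 31.4 CPM (7.80 to 57.4) at E17.5 and 191 CPM (166 to 201) at P7, Olig1 at 9.87 CPM and 89.0 CPM, and Sox10 at 1.61 CPM and 20.1 CPM. E17.5 mice 3 and 4 were lowest over this list, with sums of 33.2 and 27.5 CPM against 71.7 to 127 CPM in the other embryos. Among 8 genes of committed and differentiating cells 5 rose, 4 by more than 2-fold, and 1 fell. Gpr17, a receptor of cells about to differentiate, went from 4.75 CPM to 98.8 CPM. Of 16 myelin genes 12 could be tested and 11 rose, 10 by more than 2-fold (median 2.18), while Mog, Mobp, Opalin and Nkx6-2 were too low to test. Mbp, for myelin basic protein, lay at 16.7 CPM (14.2 to 21.2) and then 70.2 CPM (59.1 to 76.1), and Mag, a myelin adhesion protein gene, reached 3.98 CPM.

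Astrocyte genes rose in 22 of 27 cases, 20 by more than 2-fold. Aqp4, the water channel of astrocyte endfeet, went from 4.02 CPM (1.89 to 12.2) to 303 CPM (275 to 318), a log2 change of 5.73 ± 0.43. The glutamate transporter gene Slc1a2 and the glutamine synthetase gene Glul rose from medians of 309 and 134 CPM to 1210 and 555 CPM. Apoe, the lipid carrier, went from 106 CPM to 956 CPM, Sparcl1, a secreted synapse-promoting protein, from 108 CPM to 1070 CPM, and Gfap from 45.1 CPM to 289 CPM. Sox9 and Gldc, which radial glia share, were the only members of the list to fall, by 1.39 ± 0.20 and 1.31 ± 0.18.

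Microglia genes rose by less. Of 10 homeostatic genes 9 rose and 8 passed 2-fold (median 1.46), with the purinergic receptor gene P2ry12 at 4.81 CPM (4.42 to 6.18) and then 20.7 CPM (18 to 23), Tmem119 at 1.96 and 6.59 CPM, and Csf1r, the receptor that sustains microglia, at 19.2 and 52.1 CPM. Sall1, which neural progenitors also express, fell by 0.84 ± 0.25. All 10 complement and phagocytic genes rose, 3 by more than 2-fold (C1qa 2.48-fold), a count that moved to 6 without E17.5 mouse 5 and to 1 with library totals alone. Of 7 genes of the microglia that populate proliferating regions 3 rose (background 37.5%) and 4 did not pass. Endothelial genes stayed near the median of all genes, with 5 rises and 2 falls of 12 (backgrounds 37.5% and 39.3%, median 0.35). The tight junction gene Cldn5 was up by 0.66 ± 0.13. Mural genes rose in 5 of 7 cases, with Vtn, for vitronectin, up 3.90-fold and the smooth muscle actin gene Acta2 5.02-fold.

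Cholesterol synthesis genes hardly moved: 7 of 13 rose and 2 fell, none by more than 2-fold, with a median of 0.15, between 0.55 ± 0.10 for Hmgcs1 and -0.33 ± 0.07 for Cyp51. Cyp46a1, the neuronal enzyme that turns over cholesterol, rose 3.84-fold. Axon guidance genes had 14 rises and 16 falls among 34, near the shares of all genes (37.5% and 39.3%). Draxin, a ligand for commissural axons, fell from 336 CPM (263 to 447) to 37.0 CPM (31.9 to 54.5), the netrin receptor gene Dcc from 207 CPM to 62.6 CPM, and the semaphorin gene Sema3f and the Eph receptor gene Ephb1 by 2.01 and 1.86 on the log2 scale. Sema3e, the repulsive netrin receptor gene Unc5c and Robo3 rose by 2.5, 2.38 and 3.86.

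Among chromatin genes, 7 of 10 in the DNA methylation list and 8 of 12 in the polycomb and remodelling list fell (background 39.3%). In each list 2 fell by more than 2-fold (background 7.48%). The methylation enzymes parted: Dnmt1, which copies methylation after replication, and its partner gene Uhrf1 fell by 0.95 ± 0.07 and 2.15 ± 0.21, while Dnmt3a, which writes new methylation, rose by 0.79 ± 0.07. Ezh2, the polycomb methyltransferase, fell from 89.6 CPM (73.4 to 130) to 16.9 CPM (15.7 to 17.9). In the hormone list 9 of 12 thyroid hormone and glucocorticoid genes rose, 6 by more than 2-fold (median 1.03). Thrb, the beta receptor for thyroid hormone, rose from 1.58 CPM to 19.1 CPM, Klf9, a target of both hormones, from 9.10 CPM (6.89 to 10.0) to 81.8 CPM (70.4 to 103), Nr3c1, the glucocorticoid receptor, 4.26-fold and Crym, which binds thyroid hormone, 3.90-fold. Growth factor and imprinted genes had 5 rises and 6 falls of 13, also near the shares of all genes, and among those that fell Cdkn1c and Dlk1 passed 2-fold (4.83-fold and 5.48-fold lower). The neurotrophin receptor gene Ntrk2 rose 2.58-fold.

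**Figure D4:**
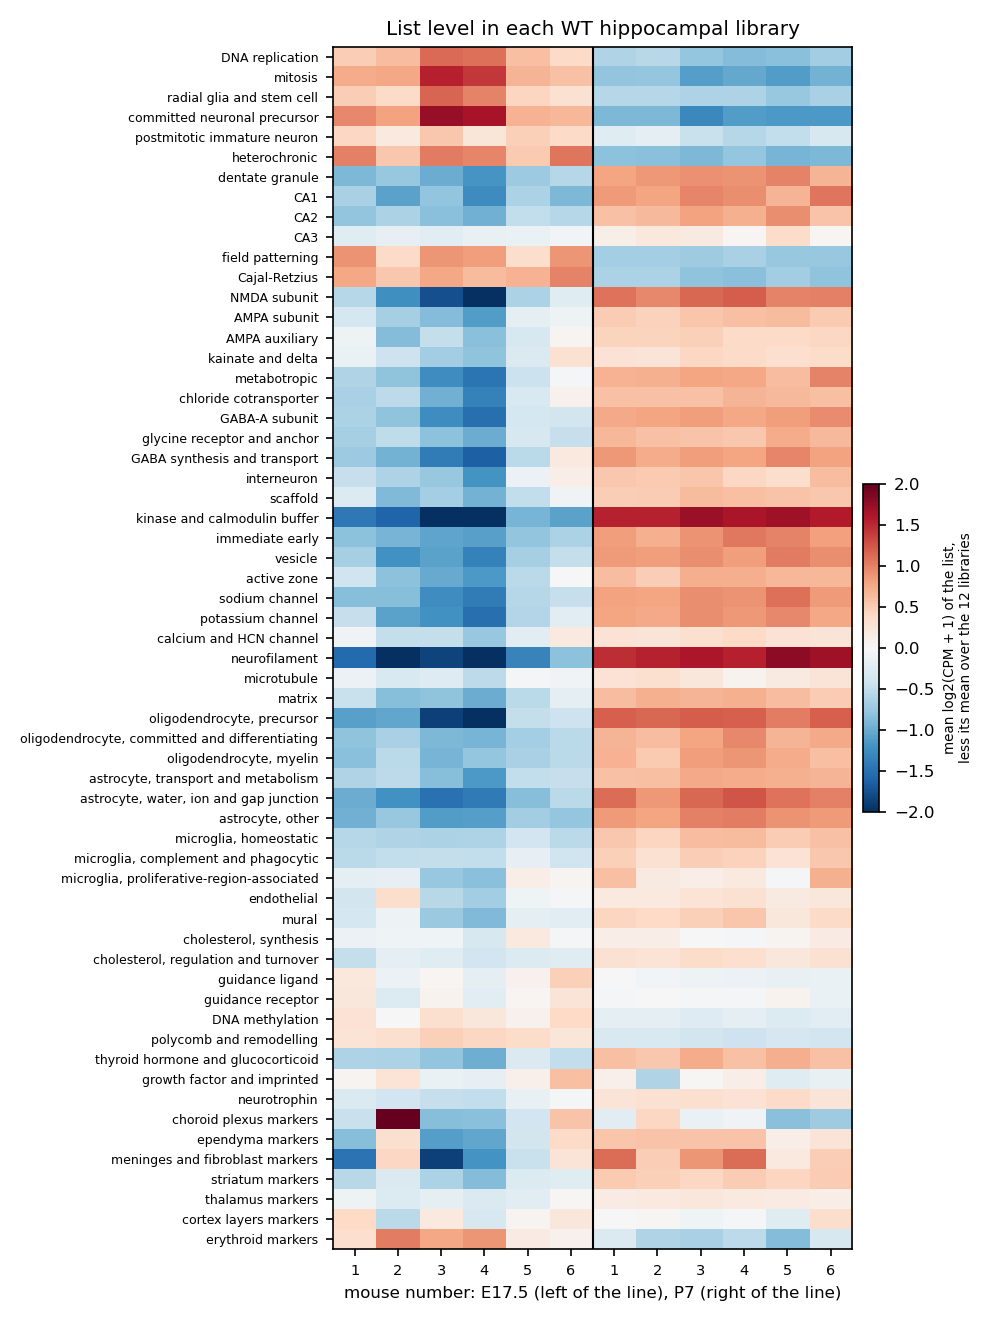
Level of each list (rows) in each of the 12 libraries (columns, E17.5 left of the line and P7 right of it), as the mean log2(CPM + 1) of its members less its mean over the 12 libraries, with colours ending at 2 and -2. E17.5 mice 3 and 4 are highest in the cell cycle and neuronal precursor rows and lowest in the oligodendrocyte precursor row, and E17.5 mouse 2 is highest in choroid plexus markers.

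Markers of neighbouring tissue moved in part with age. The summed level of 8 choroid plexus genes was 30.8 to 178 CPM in 5 E17.5 libraries and 5110 CPM in mouse 2, against 55.9 to 222 CPM at P7. Ttr, transthyretin, accounted for most of this, with 4760 CPM in mouse 2 and 2.76 to 120 CPM in the other embryos. Its log2 change was -4.21 with all mice and 0.30 without mouse 2. Meningeal and fibroblast genes summed to 37.4 to 234 CPM in embryos and 199 to 424 CPM in pups, and 7 of 8 rose, with Col1a1 at 1.55 to 33.3 CPM and then 29.1 to 67.2 CPM. Striatal markers rose from sums of 8.19 to 27.5 CPM to sums of 31.8 to 35.2 CPM, thalamic markers overlapped (159 to 231 CPM and 169 to 192 CPM), and so did markers of cortical layers (327 to 538 CPM and 366 to 467 CPM). Erythroid genes fell, from sums of 536 to 1180 CPM to sums of 249 to 388 CPM, and all 6 tested members fell, whereas the embryonic globins summed to at most 2.26 CPM. The ependymal list had 3 rises and 1 fall of 8. The part of these tissues in the changes above was not tested, other than by leaving out mouse 2, which gave 3652 genes changed beyond 2-fold against 3406.

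The Cul3+/- hippocampus, from 6 other mice at each age that no WT comparison used, gave similar counts although the genotype differs. These mice carry the same title codes as the WT mice of their age, so they share with them whatever that code stands for. There 13485 of 17557 genes passed (76.8%), with 2432 rises (13.9%) and 1174 falls (6.69%) beyond 2-fold. Of the 3406 WT genes changed beyond 2-fold 3304 were tested in these mice, 3298 changed with the same sign (99.8%), 2875 passed the 2-fold test in the same direction and 2 were called in the opposite one. All 30 cell cycle genes and all 34 tested postsynaptic genes had the same sign in both genotypes. Agreement was lowest for choroid plexus markers, with 3 of 7 tested genes sharing the sign, and 5 of 8 ependymal, 5 of 7 thalamic and 5 of 7 kainate and delta receptor genes did so.

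Whether the hippocampal change differed from that of the cortex was tested by the interaction of age and region, with mouse number as a block. Both regions came from the same 12 mice, and at E17.5 that number joins libraries of the same mouse. At P7 the animal codes in the titles show that numbers 3, 5 and 6 join the hippocampus of a mouse to another's cortex or cerebellum. The calls, SE and p of these tests therefore do not rest on pairing within mice throughout. The test called 6740 of 18774 genes (35.9%), 3563 with the more positive change in hippocampus (19%) and 3177 with the more negative one (16.9%). With library totals alone these were 2004 and 4150, so that split depends on the scaling. Without the block 5463 genes were called, 2728 and 2735 in these directions. Values in this comparison are CPM scaled over both regions. Neurofilament genes stood out, with 3 of 4 more positive in hippocampus (median difference 2.54): Nefl had a median of 131 CPM in the E17.5 cortex against 12 CPM in the E17.5 hippocampus, and at P7 361 CPM against 603 CPM. Of the field lists, dentate granule genes had 6 more positive and 2 more negative changes of 10 in hippocampus (median 0.85), and CA1 genes 5 and 2 of 8 (1.41). CA2 genes had 0 and 2 of 6 (-0.47) and CA3 genes 2 and 3 of 8 (-0.09). Wfs1 went from 8.16 CPM to 38.6 CPM in hippocampus and from 3.43 CPM to 44.0 CPM in cortex. Rgs14 went from 0.432 CPM to 13.5 CPM and from 0.114 CPM to 8.84 CPM. Of 12 neuronal precursor genes 6 had the more positive change in hippocampus and 2 the more negative one. Neurog2 went from 53.1 CPM to 3.53 CPM in hippocampus but from 36.6 CPM to 0.196 CPM in cortex (log2 difference 3.43 ± 0.25), and Igfbpl1, of the newborn neuron list, from 473 to 62.9 CPM against 362 to 6.45 CPM (2.85 ± 0.20). Mitosis genes differed in the same direction in 9 of 18 cases with small differences (median 0.38), a count that was 5 without E17.5 mice 3 and 4 and 0 without the block.

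Lists with more members whose change was more negative in hippocampus included glial, meningeal, choroid plexus and some neuronal lists. Of 12 other astrocyte genes 8 were more negative and 2 more positive (median -0.79), of 10 complement and phagocytic genes 7 and 1 (-0.65), and all 8 meningeal genes were more negative (6 without E17.5 mouse 2). Choroid plexus genes were more negative in 7 of 8 cases. That count includes E17.5 mouse 2, whose hippocampal sum of these genes, as given above, was 5110 CPM against 30.8 to 178 CPM in the other embryos. AMPA auxiliary genes were more negative in 6 of 10 cases and more positive in 2 (-0.52), and immediate early genes were more negative in 5 of 11 (-0.55). Oligodendrocyte precursor genes did not lean this way, with 3 more positive and 1 more negative of 8. The astrocyte transport and metabolism list was split, with 3 more positive and 4 more negative of 9 (median -0.04). Within it, Slc1a2 had a median of 69.9 CPM in the E17.5 cortex against 306 CPM in the E17.5 hippocampus, and of 909 CPM against 1210 CPM at P7. The 8 genes with the smallest p in this test all had the more negative change in hippocampus. Rmst (hippocampus 88.0 to 5.70 CPM, cortex 6.4 to 6.76 CPM; log2 difference -3.98 ± 0.14) and the Wnt receptor gene Fzd10 (10.9 to 1.51 CPM against 0.505 to 3.84 CPM) were higher in hippocampus than in cortex at E17.5 and not at P7. Wnt9a and Tpbg, an inhibitor of Wnt signalling, showed the same order of medians (-4.64 and -3.22). Slc17a8, the vesicular glutamate transporter VGLUT3, went from 3.30 CPM to 4.99 CPM in hippocampus and from 0.201 CPM to 22.7 CPM in cortex, and Stxbp6, Sidt1 and 0610040J01Rik also had the more positive change in cortex (-2.10, -2.86 and -3.31).

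The change in cerebellum, whose granule neurons are still being made at P7, differed more widely. The same test called 12344 of 18864 genes (65.4%), 6048 with the more positive change in hippocampus (32.1%) and 6296 with the more negative one (33.4%). Without the block it called 12489. All 12 replication and all 18 mitosis genes were more negative in hippocampus (medians -1.98 and -2.61). Mki67 went from 206 CPM to 44.3 CPM there and from 248 CPM to 374 CPM in cerebellum. All 6 NMDA subunit genes, all 10 genes of the kinase and calmodulin buffer list, all 8 CA1 genes and all 4 neurofilament genes were more positive, and Nrgn, at 237 CPM in the P7 hippocampus, stayed at 0.977 CPM in the P7 cerebellum. Myelin genes went the other way, with 10 of 15 more negative in hippocampus: Mbp reached 565 CPM (184 to 864) in the P7 cerebellum and 70.2 CPM (58.7 to 75.6) in the P7 hippocampus. Gfap went from 3.37 CPM to 421 CPM in cerebellum and from 45.0 CPM to 288 CPM in hippocampus (log2 difference -4.45).

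The 8 genes with the smallest p against cerebellum differed in both directions. Kcnab2, a potassium channel subunit, rose from 15.3 CPM to 150 CPM in hippocampus and from 28.6 CPM to 42.6 CPM in cerebellum, and Coch, Rem2 and Lrrtm1, the last a synaptic adhesion gene, rose in hippocampus while their cerebellar medians went from 32.5, 12.1 and 42.8 CPM to 10.3, 6.12 and 11.8 CPM. Cntn2, the axonal adhesion protein TAG-1, which young granule neurons of the cerebellum also carry, went from 1050 CPM to 183 CPM in hippocampus and from 174 CPM to 619 CPM in cerebellum. Dio2, which activates thyroid hormone, went from 47.1 CPM to 67.2 CPM in hippocampus and from 0.537 CPM to 15.4 CPM in cerebellum, and the neighbouring interferon-inducible genes Ifi203 and Mndal, which belong to a family of close copies whose reads the counting may share out, fell in hippocampus while their cerebellar medians went from 0.411 and 1.37 CPM to 25 and 34.9 CPM (log2 differences -7.28 and -5.56). The comparisons with cortex and cerebellum share the hippocampal libraries and are not independent of each other.

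**Figure D5:**
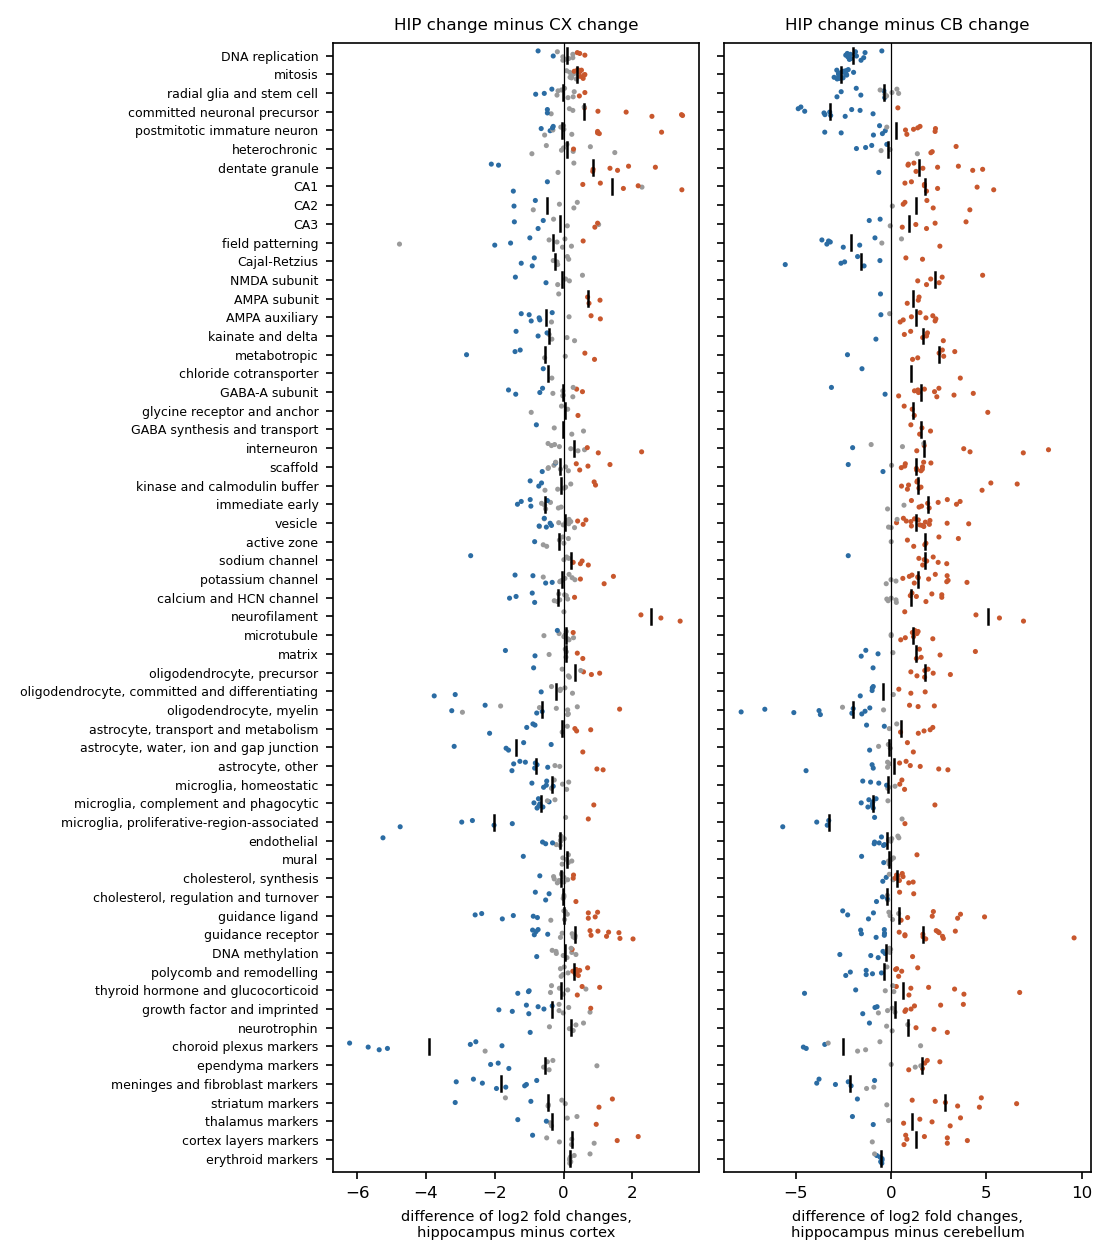
Difference between the hippocampal change and the change in cortex (left) or cerebellum (right), in log2 units (horizontal axes), for each tested member of each list (rows), with black bars at list medians. Orange and blue points passed the interaction test with the more positive or more negative change in hippocampus, and the neurofilament row has the highest median in both panels (2.54 and 5.06).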

How the data were processed

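Per the labels and the submitters' processing notes, the authors trimmed reads with cutadapt 1.14, aligned them with STAR 2.5.3a to GRCm38.p5 (mm10) and estimated gene counts with RSEM 1.3. The deposited values are RSEM expected counts for 53465 genes, neither normalized nor pooled. Of these values 5.76% were not whole and were rounded. RSEM shares reads among similar genes, so close copies are less certain than their depth implies. Symbols and coordinates came from GENCODE M21, which matched 53360 genes.

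Counts were tested with edgeR 4.0.16 in R 4.3.3 (filterByExpr at 10 counts per library and 15 in total, TMM, quasi-likelihood test, and glmTreat against 2-fold) at a Benjamini-Hochberg FDR of 0.1. The SE is the log2 change divided by the root of its F statistic. Region interactions had the mouse number of the title as a block, which at P7 does not always join the same animal across regions. The 3 count ratios were tested by exact permutation. Intervals on counts cover counting error only. The tests were first tested on simulated data with known changes.

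The members and gene lists were chosen with earlier results of these data known. Genes named were the 12 largest rises and 12 largest falls beyond 2-fold without overlap and with a mean of at least 5 CPM at the higher age (unnamed gene models left out), list members, the 8 smallest p of each interaction, the ratio genes and Cul3. Alternatives covered normalization, the low-count filter, the test (DESeq2 1.42.0, likelihood ratio), Xist as a covariate, a replicate block, counts summed by title code and left-out libraries. Some genes and 1 of the ratios are not reported here. Libraries of other ages, regions and genotypes beyond those compared were not used here.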

Additional observations from a re-analysis of the deposited data

Results flagged for a closer look

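Among 410 groups of 6 values, 1 for each named gene at each age, 27 held a highest or lowest value whose gap to the nearest other, divided by the range, exceeded the Dixon critical value at 95%, and chance gives about 1 in 20. There were 16 at E17.5 and 11 at P7. E17.5 mouse 6 held 7, E17.5 mouse 2 and P7 mouse 5 held 4 each, and no other library held more than 2.

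E17.5 mouse 2 stood high in choroid plexus genes: Ttr lay at 4760 CPM against 2.76 to 120 CPM in the other embryos, Clic6 at 118 CPM against 2.13 to 7.26 CPM and Otx2 at 38.4 CPM against 5.31 to 12.9 CPM. The 0.0295 CPM of Neu4 in that library is its single count. P7 mouse 2 was high in Ttr (152 CPM against 3.96 to 39.1 CPM) and near 0 in Mest, an imprinted gene (0.363 CPM against 44.5 to 53.6 CPM).

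E17.5 mouse 6 was highest in Cpne6 (1.70 CPM), Dlx2 (13.9 CPM), Egr4 (0.425 CPM), Npas4 (1.37 CPM), Dnmt3a (236 CPM), Dlk1 (6.74 CPM) and Ccdc153 (1.15 CPM). E17.5 mouse 5 was highest in Cck (55.2 CPM) and Sv2b (51.3 CPM), mouse 3 in Fibcd1 (25.3 CPM), and mouse 4 highest in Enpp6 (0.367 CPM) and lowest in Tnc (457 CPM). At P7, mouse 5 was highest in Iyd (4.70 CPM) and lowest in Grin3a (89.3 CPM), Olig1 (75.2 CPM) and Gldc (28.6 CPM), mouse 6 lowest in Zbtb20 (396 CPM) and Dcc (50.4 CPM), mouse 4 lowest in Tubb2a (2110 CPM), mouse 3 highest in Pvalb (0.769 CPM) and mouse 1 highest in Igf2bp1 (1.40 CPM).

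The change from E17.5 to P7 differed between regions by the interaction test in these genes, the 8 of smallest p in each comparison. Against cortex the log2 difference, hippocampus minus cortex, was -3.98 for Rmst, -5.75 for Fzd10, -3.22 for Tpbg, -5.81 for Slc17a8, -2.10 for Stxbp6, -3.31 for 0610040J01Rik, -4.64 for Wnt9a and -2.86 for Sidt1. Against cerebellum it was 4.56 for Coch, -7.28 for Ifi203, 3.32 for Rem2, -5.56 for Mndal, 2.78 for Kcnab2, -4.32 for Cntn2, -4.53 for Dio2 and 3.12 for Lrrtm1.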

How the results depend on the processing

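The 5 counts of genes called and the 3 ratios stayed within 1.5 times or on the same side of the threshold under every alternative run. Leaving out 1 library gave 13170 to 13849 calls and 3217 to 3679 beyond 2-fold, and DESeq2 gave 2592 beyond 2-fold, all shared with the 3406. Of 4910 pairs of a named gene and an alternative 4872 kept direction and side of the threshold, 26 lost the call (Cul3, Fabp7, Lhx6, Ttr and Slc17a8) and 2 gained it (Shank1). The sign turned in 4 genes, of which only Ttr had passed. Tubb3 gave -0.07 with library totals alone and -0.02 without E17.5 mice 1 and 4. Mapt gave -0.06 with library totals, -0.05 without mice 1 and 4, -0.14 without mice 3 and 4, and -0.03 to 0.13 with 1 library left out. Prox1 gave -0.05 with library totals, -0.03 without mice 3 and 4, and -0.05 to 0.25 with 1 library left out. Ttr ranged from -5.20 to 0.30 with 1 library left out, the latter without E17.5 mouse 2. The cause was not tested. Mice 1 and 4 were left out together because of a low share of uniquely mapped reads in the study's quality table. Leaving out mice 3 and 4, or E17.5 mouse 2 from the region comparisons, and summing by title code were chosen after seeing the data.

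Mice of the same number at each age are different animals, and the deviations of same-numbered pairs correlated at -0.165 to 0.035 (median -0.032, other pairs 0.012), with 0 of 6 embryos correlating best with its own number. A replicate block gave 13156 calls and 3408 beyond 2-fold. Depth limited genes near 0 counts in the embryo, such as Neu4 and Pvalb.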

Other observations

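Some genes stood apart in a single library, and they were chosen after their values were seen. E17.5 mouse 2 held 23 genes with at least 5 CPM and more than 10 times the level of every other library of its age, among them Ttr, Folr1, Aqp1, Clic6, Kcne2, Kcnj13 and Slc4a5, which choroid plexus epithelium is known to express. E17.5 mouse 6 held 3 such genes, Fgf15, Isl1 and Prdm12, which are transcription factors and a growth factor of the developing diencephalon and ventral forebrain.

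Mest was near 0 in P7 mouse 2 in every region sampled from it: 0.360 CPM in hippocampus, 0.0306 CPM in cortex and 0.0879 CPM in cerebellum, against 44.4 to 53.4, 49.1 to 64.0 and 48.9 to 63.7 CPM in the 5 other WT mice. The gene lay at 97.2 to 135 CPM in the WT hippocampus at E17.5 and at 34.5 to 69.0 CPM in the Cul3+/- hippocampus at P7.

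Adnp, a chromatin-associated homeobox factor, spread from 18.1 to 205 CPM among the embryos (median 71.5 CPM) and from 8.09 to 14 CPM among the pups, a log2 change of -3.11 ± 0.53.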
